A study of Mus musculus with 39 samples.

Results

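The interferon-stimulated genes described here are a list of 59 genes, taken by symbol from the 34600 entries of each of 3 deposited tables of gene levels in the mouse gut. All 59 symbols were found, and all 59 passed the filter of at least 1 TPM (transcript abundance scaled to a fixed library total) in at least 6 of the 13 libraries of a tissue, in each of the 3 tissues. Ifi44l passed it only through BALB/cJ, where 6 of 6 libraries reached 1 TPM in each tissue against 0 of the C57BL/6J libraries, so its difference was given by the filter. The counts below of members higher in BALB/cJ, and of ranges wholly above, include Ifi44l in all 3 tissues.

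Type I and type III interferons are secreted by cells that sense microbial nucleic acids, and they act through surface receptors and their kinases on a transcription factor complex that contains STAT2 and IRF9. The complex binds interferon-stimulated response elements in the promoters of many genes. Their products sense viral RNA, degrade or sequester it, tag proteins with the ubiquitin-like protein ISG15, and feed back on the pathway. In the gut, epithelial and immune cells carry a tonic level of these transcripts that is known to depend on the microbiota.

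RNA was sequenced from gut tissue of 13 mice of the inbred strains BALB/cJ (6 mice) and C57BL/6J (7 mice), and every mouse gave 1 library each from the colon, the ileum and a sample labelled duodenum/jejunum. The labels give no treatment, transgene, sex, age, housing or date, and any of these that went with strain cannot be told apart from it. The samples were whole tissue, in which fewer cells of a type and less RNA per cell cannot be told apart. Values are TPM, which are scaled for transcript length, and differences are of log2(TPM + 1), BALB/cJ minus C57BL/6J, tested with limma and called at a Benjamini-Hochberg adjusted p under 0.05 over all genes tested in the tissue. The spread is between 6 or 7 animals, and folds are ratios of mean TPM.

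Turned back to TPM, the 39 libraries each summed to between 979558 and 996230, and the number of reads behind them is unknown. H2-Ea-ps, a class II gene disrupted in C57BL/6 mice, was at 84.6 TPM or more in every BALB/cJ library and at 0.381 TPM or less in every C57BL/6J library. Fabp6, an ileal bile acid carrier gene, was at 22.1 TPM in the ileum of C57BL/6J mouse 2 as labelled and at 6111 TPM in its duodenum/jejunum, and the duodenal enteropeptidase gene Tmprss15 was at 51.2 and 39.2 TPM. In the other C57BL/6J mice Fabp6 was at 3766 TPM or more in the ileum and at 31.99 TPM or less in the duodenum/jejunum, and Tmprss15 was at 0.0304 TPM or less in the ileum and between 12.2 and 57.9 TPM in the duodenum/jejunum. The library labelled ileum thus goes against its label by both genes, and that labelled duodenum/jejunum by Fabp6 but not by Tmprss15. Counts of called members are given with mouse 2 and without it.

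Promoters of the list were searched for the core of the interferon-stimulated response element. In windows from 250 bases before to 50 bases after the start of a gene (RefSeq, GRCm38.p6), the motif GAAANNGAAA, or TTTCNNTTTC on the other strand, was present in 24 of the 45 members with an entry (53.3%) and in 1079 of 27025 genes with an entry (3.99%). Both strings were searched on the gene's strand, and copies could overlap. The stretches below are examples from members with a copy, both called and not called between the strains in the colon. They are given 5′ to 3′ on the gene's strand, with motif copies in capitals.
Isg15, chr4:156200850-156200921, minus strand: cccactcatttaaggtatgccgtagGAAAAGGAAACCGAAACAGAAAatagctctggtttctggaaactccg
Ifit1, chr19:34640760-34640838, plus strand: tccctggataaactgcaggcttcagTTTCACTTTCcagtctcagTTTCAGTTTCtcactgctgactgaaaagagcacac
Ifit3, chr19:34583348-34583441, plus strand: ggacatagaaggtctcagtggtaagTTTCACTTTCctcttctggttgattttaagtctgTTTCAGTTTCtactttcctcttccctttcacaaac
Ifit3b, chr19:34607744-34607837, plus strand: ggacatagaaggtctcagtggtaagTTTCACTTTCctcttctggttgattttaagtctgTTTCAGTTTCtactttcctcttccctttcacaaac
Oas1g, chr5:120887614-120887656, minus strand: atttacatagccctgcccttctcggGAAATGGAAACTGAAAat
Oas3, chr5:120777700-120777759, minus strand: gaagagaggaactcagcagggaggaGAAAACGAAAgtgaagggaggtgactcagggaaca
Ddx60, chr8:61928009-61928086, plus strand: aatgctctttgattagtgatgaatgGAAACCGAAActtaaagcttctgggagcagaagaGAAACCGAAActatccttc
Rsad2, chr12:26456538-26456597, minus strand: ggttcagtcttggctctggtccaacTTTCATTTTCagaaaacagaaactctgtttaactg
Bst2, chr8:71537562-71537627, minus strand: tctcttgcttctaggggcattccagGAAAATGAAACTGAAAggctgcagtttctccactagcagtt
Tgtp2, chr11:49064248-49064307, minus strand: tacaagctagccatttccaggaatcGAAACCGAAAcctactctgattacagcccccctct

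Isg15 had 3 overlapping copies, and the stretches of Ifit3 and Ifit3b differed at 0 of 94 bases. A copy was found in 20 of the 40 members with an entry that were higher in BALB/cJ colon, and in 4 of the 5 members with an entry that were not called there (Ifit1bl1, Bst2, Trim21 and Tgtp2). No match says only that these letters were not in the window.

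The list differed between the strains almost only in the colon. There 53 of 59 members were higher in BALB/cJ, 0 were lower and 6 were not called, where 14.5% of the 15769 genes tested were higher and 10.8% lower. In 48 members every BALB/cJ colon lay above every C57BL/6J colon, and in 0 the reverse, against 6.49% and 4.97% of all genes (50 and 0 members without mouse 2). The median log2 difference was 1.12 over the list and 0.02 over all genes tested. Without mouse 2 the count of higher members was again 53. The list was chosen with earlier results of these data known, so its shares beside those of all genes are a description.

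In the ileum 7 members were higher, 2 were lower and 50 were not called, against 17.2% of genes higher and 3.17% lower. All genes together leaned towards BALB/cJ in that tissue, with a median log2 difference of 0.17 against 0.02 for the list. With median-of-ratios scaling, which brings the median of all genes to -0.00, the list's median was -0.17 and the calls were 4 higher and 4 lower. In 4 members every BALB/cJ ileum lay above every C57BL/6J ileum and in 0 below, against 8.37% and 1.44% of genes, and without mouse 2 the counts were the same. These shares are near or under the background. Without mouse 2 the calls were 8 higher and 2 lower.

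In the duodenum/jejunum 4 members were higher, 3 were lower and 52 were not called, against 4.70% of genes higher and 4.80% lower, and the median was 0.06 against 0.01. With median-of-ratios scaling 5 were higher and 2 lower, and without mouse 2, 5 were higher and 1 lower. In 1 member the BALB/cJ range lay wholly above and in 1 wholly below, against 2.89% and 2.47% of genes, also without mouse 2. The member above was Ifi44l, whose difference was given by the filter, and the member below was Epsti1.

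**Figure D1:**
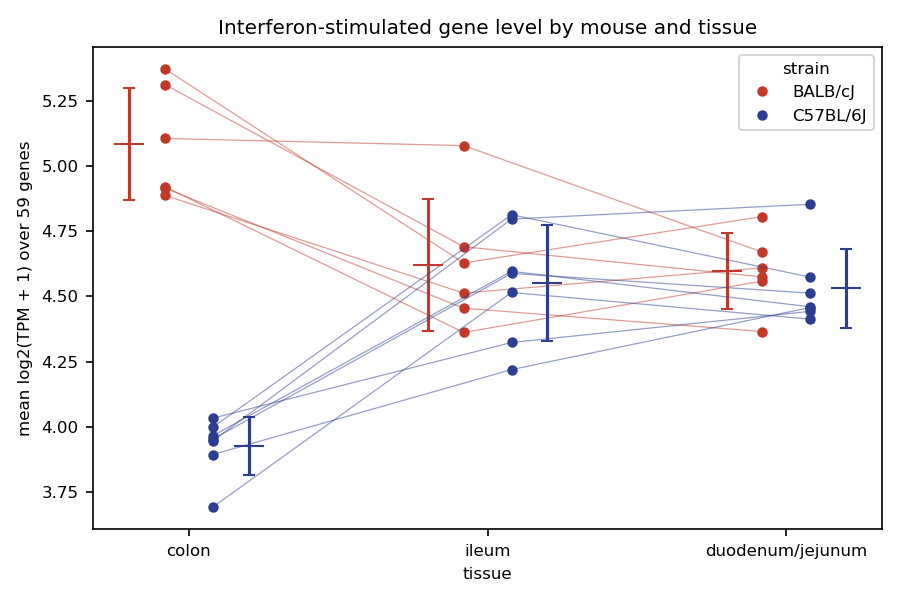
Mean log2(TPM + 1) over the 59 genes (y axis) in each tissue (x axis). Each point is 1 library, thin lines join the 3 libraries of a mouse, and bars give the mean and SD of the 6 BALB/cJ or 7 C57BL/6J mice. The BALB/cJ colons, from 4.89 to 5.37, all lie above the C57BL/6J colons, from 3.69 to 4.03, while the strains overlap in both parts of the small intestine.

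As a summary per library, the mean log2(TPM + 1) over the 59 genes was 5.08 ± 0.214 (SD, n = 6) in BALB/cJ colon and 3.93 ± 0.112 (SD, n = 7) in C57BL/6J colon. It was 4.62 ± 0.253 and 4.55 ± 0.222 in the ileum, and 4.597 ± 0.145 and 4.53 ± 0.152 in the duodenum/jejunum, with overlapping strains in each. The C57BL/6J colon was the low end and the BALB/cJ colon the high end of the 6 groups. Of the 59 members 36 had their highest group mean in BALB/cJ colon, and 38 had their lowest in C57BL/6J colon (34 and 37 without mouse 2). These extremes were not counted over all genes, so the counts describe the list alone.

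**Figure D2:**
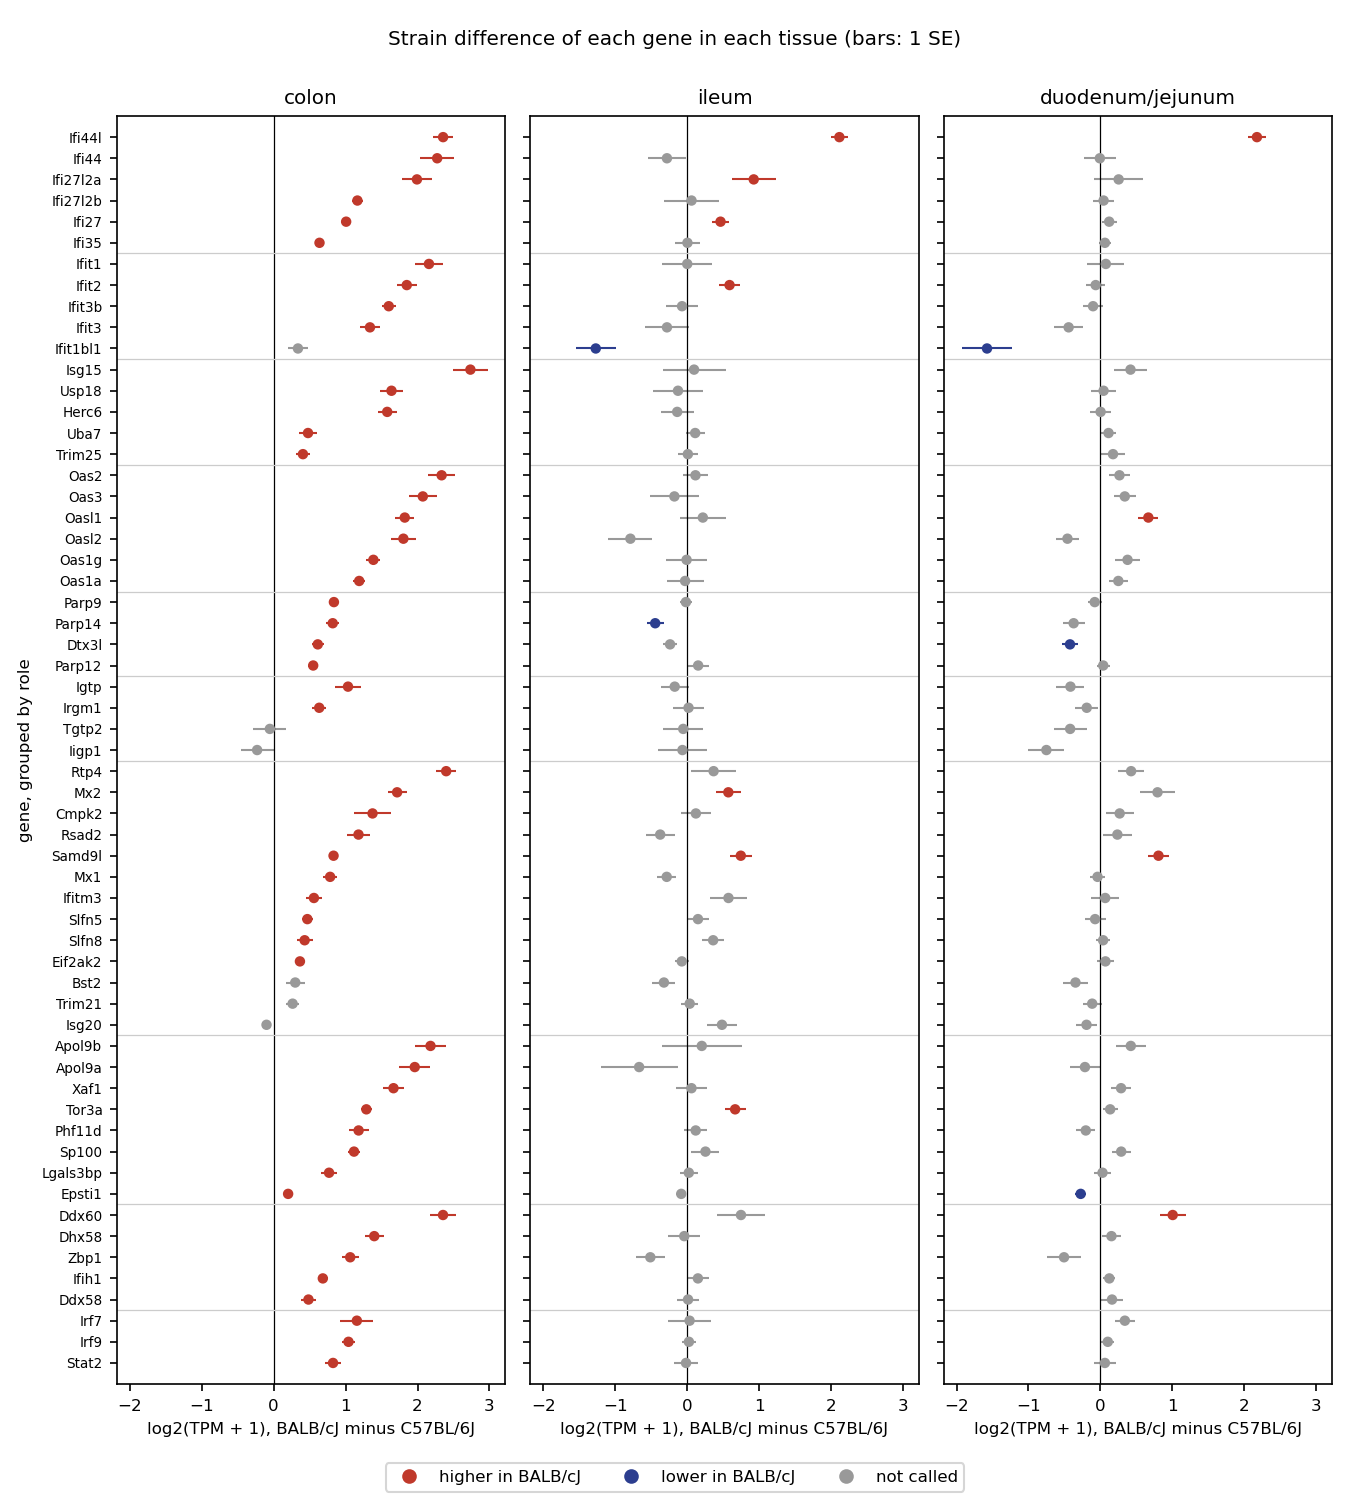
Difference of log2(TPM + 1), BALB/cJ minus C57BL/6J (x axis), for each of the 59 genes, grouped by role (y axis), in the colon, ileum and duodenum/jejunum. Points are limma estimates with 1 SE, coloured by call. In the colon 53 points are called and lie right of 0, and in the other tissues most are not called and lie near 0.

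The ISG15 system attaches the ubiquitin-like protein ISG15 to other proteins, and all 5 of its members were higher in BALB/cJ colon. Isg15, the modifier itself, ranged from 21.8 to 69.7 TPM (median 34.5) in BALB/cJ colon and from 2.99 to 6.11 TPM (median 4.80) in C57BL/6J colon. The ranges lay far apart, and Isg15 had the largest log2 difference of the list, 2.74 ± 0.24 (SE), an 8.31-fold ratio (adjusted p 8.4e-07). In the ileum Isg15 ranged from 10.1 to 63.4 TPM (median 15.9) and from 7.57 to 50.2 TPM (median 16.7), and in the duodenum/jejunum from 18.9 to 50.9 (median 26.4) and from 14.5 to 31.9 (median 19.05), overlapping in both (adjusted p 0.89 and 0.33). Herc6, the main ISG15 ligase of the mouse, ranged from 18.8 to 31.3 TPM in BALB/cJ and from 5.11 to 8.37 TPM in C57BL/6J colon (3.28-fold, log2 difference 1.58 ± 0.13, adjusted p 6.3e-07). Usp18, which removes ISG15 and restrains the receptor, was 3.83-fold higher, whereas Uba7, the activating enzyme, and Trim25, an ISG15 ligase and activator of RIG-I, were 1.38-fold and 1.34-fold higher. None of the 5 was called in the ileum or the duodenum/jejunum.

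The OAS enzymes make 2′-5′-linked oligoadenylates from ATP when they bind double-stranded RNA, which activates RNase L, and all 6 members were higher in BALB/cJ colon, by 2.34-fold to 8.07-fold. Oas2 ranged from 8.25 to 18.5 TPM (median 9.998) in BALB/cJ and from 1.15 to 1.90 TPM (median 1.44) in C57BL/6J colon (log2 difference 2.33 ± 0.18, adjusted p 2.8e-07). In the ileum it was at a median of 1.82 and 1.63 TPM, and in the duodenum/jejunum at 2.80 and 2.10 TPM, with overlapping ranges. BALB/cJ colon thus stood apart from the other 5 groups for Oas2. Oas3, the longest enzyme of the family, was 5.18-fold higher in the colon. Oasl1, a family member without enzyme activity, ranged from 45.4 to 82.9 TPM against 12.1 to 19.3 TPM in the colon, and it was the only OAS gene also higher in BALB/cJ duodenum/jejunum (40.7 to 72.4 TPM, median 52.9, against 25.5 to 41.0 TPM, median 32.3; 1.61-fold, adjusted p 0.0050). Oasl2 was 3.64-fold higher in the colon (66.4 to 132 against 15.2 to 30.4 TPM), but its median was below that of C57BL/6J in the ileum (33.5 against 66.2 TPM, adjusted p 0.081) and the duodenum/jejunum (51.7 against 72.9 TPM, adjusted p 0.083), where it was not called.

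Oas1a and Oas1g lie next to each other on chromosome 5 and share sequence: 68.7% of the 31-base words of Oas1a transcripts occur in Oas1g transcripts. Reads can be split between them, so their sum is the safer value. It was at a median of 147 TPM in BALB/cJ and 59.9 TPM in C57BL/6J colon (2.49-fold), against 45.0 and 45.6 TPM in the ileum and 52.2 and 43.8 TPM in the duodenum/jejunum. Singly, Oas1a was 2.34-fold and Oas1g 2.70-fold higher in the colon.

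IFIT proteins bind viral RNA that lacks the host cap marks. Of 5 members 4 were higher in BALB/cJ colon and 1, Ifit1bl1, was not called. Ifit1 ranged from 31.2 to 60.8 TPM (median 39.1) in BALB/cJ and from 5.21 to 10.9 TPM (median 9.59) in C57BL/6J colon, 4.91-fold, and its ranges overlapped in the other tissues. Ifit2 ranged from 13.1 to 26.9 TPM against 3.74 to 4.85 TPM in the colon (4.32-fold, adjusted p 1.5e-07) and from 4.56 to 9.39 TPM against 2.66 to 4.43 TPM in the ileum (1.66-fold, adjusted p 0.011), with no overlap in either. In the duodenum/jejunum its medians were 3.42 and 3.35 TPM. The ileal call of Ifit2 was lost with the B cell level as a covariate (log2 difference 0.31, adjusted p 0.17).

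Ifit3 and Ifit3b, whose promoter stretches above were identical and of whose 31-base words 61.8% and 54.1% were shared, moved alike: Ifit3 was 2.85-fold and Ifit3b 3.98-fold higher in BALB/cJ colon. Their sum was at a median of 23.4 TPM against 7.69 TPM in the colon, 9.12 against 10.8 TPM in the ileum and 12.1 against 14.2 TPM in the duodenum/jejunum.

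Ifit1bl1 followed a different course from the rest of the list. It was at 105 to 181 TPM (median 124) in BALB/cJ and 76.8 to 138 TPM (median 103) in C57BL/6J colon, overlapping and not called (adjusted p 0.081). In the ileum it was lower in BALB/cJ, 28.4 to 76.7 TPM (median 34.5) against 46.7 to 147 TPM (median 101; 2.45-fold, adjusted p 0.0066). It was lower too in the duodenum/jejunum, 11.8 to 28.3 TPM (median 13.9) against 24.8 to 149 TPM (median 40.5; 3.61-fold, adjusted p 0.0094). In both tissues 1 BALB/cJ library, of mouse 1 in the ileum and mouse 3 in the duodenum/jejunum, reached into the C57BL/6J range. The ileal call was lost with the B cell level as a covariate (log2 difference -1.12, adjusted p 0.076). Of the 31-base words of Ifit1bl1 18.7% occur in Ifit1bl2, a gene outside the list, so reads can be split between them. Ifit1bl2 was at means of 60.5 and 62.3 TPM in BALB/cJ and C57BL/6J ileum. In the duodenum/jejunum its means were 88.1 and 74.3 TPM, and it was called in neither tissue.

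The small interferon-induced proteins of the IFI27, IFI35 and IFI44 families were all higher in BALB/cJ colon, 6 of 6. Ifi44 ranged from 8.25 to 24.5 TPM (median 10.5) in BALB/cJ and from 1.20 to 2.73 TPM (median 1.67) in C57BL/6J colon (7.41-fold, log2 difference 2.27 ± 0.24, adjusted p 5.7e-06), and its medians were 3.26 and 3.88 TPM in the ileum and 3.94 and 4.33 TPM in the duodenum/jejunum. Its neighbour on chromosome 3, Ifi44l, showed no such tissue dependence. It was at 3.00 to 7.10 TPM in BALB/cJ colon, 2.45 to 5.04 TPM in BALB/cJ ileum and 2.17 to 4.47 TPM in BALB/cJ duodenum/jejunum, and it was listed at 0 in all C57BL/6J ileum and duodenum/jejunum libraries, with a highest value of 0.0474 TPM in C57BL/6J colon. The pair shared 0 words of 31 bases.

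Ifi27 ranged from 154 to 183 TPM against 73.2 to 98.3 TPM in the colon (2.02-fold) and from 51.3 to 82.9 TPM against 40.8 to 63.5 TPM in the ileum (1.39-fold, adjusted p 0.018). Ifi27l2a ranged from 111 to 271 TPM against 26.3 to 54.4 TPM in the colon (4.11-fold) and from 29.7 to 90.3 TPM against 10.5 to 40.2 TPM in the ileum (1.93-fold, adjusted p 0.045). With median-of-ratios scaling neither ileal difference was called (adjusted p 0.21 for Ifi27 and 0.13 for Ifi27l2a), and that of Ifi27l2a was not called without the filter either (0.081). With the B cell covariate the log2 difference of Ifi27l2a was 0.33 instead of 0.93 (adjusted p 0.59), and that of Ifi27 was 0.51 instead of 0.47 (adjusted p 0.060). Ifi27l2b ranged from 203 to 291 TPM against 91.7 to 110 TPM in the colon (2.27-fold). Its medians were 283 and 208 TPM in the ileum and 473 and 482 TPM in the duodenum/jejunum, with overlapping ranges. Of the words of Ifi27l2a 6.00% occurred in Ifi27l2b. Their sum was 2.78-fold higher in BALB/cJ colon.

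**Figure D3:**
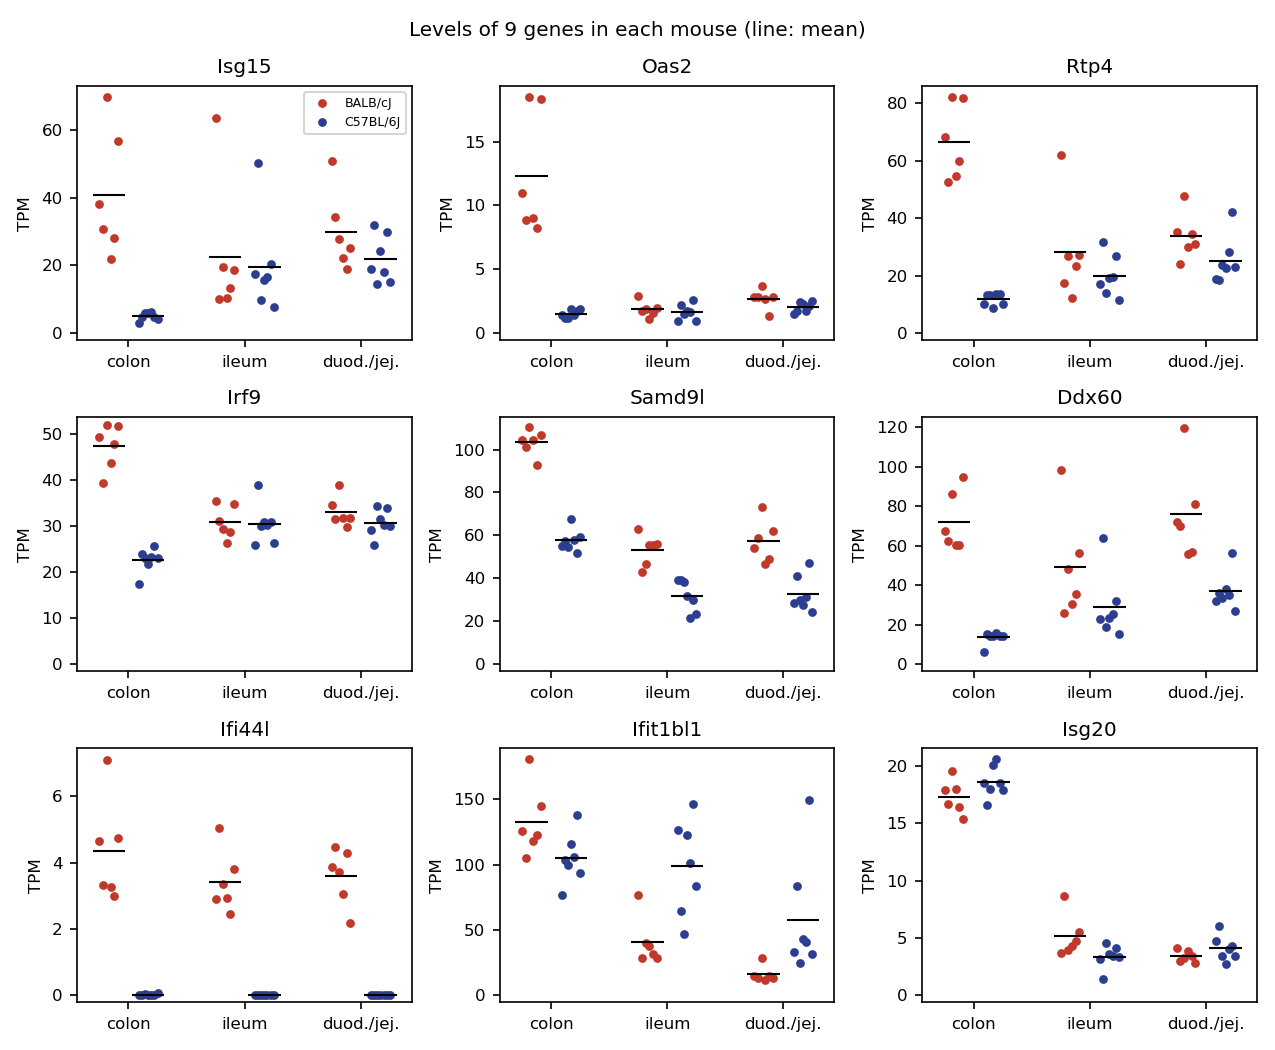
TPM (y axis, from 0) of 9 genes in each library of the 3 tissues (x axis); points are mice, coloured by strain, and lines are group means. Isg15, Oas2, Rtp4 and Irf9 separate the strains in the colon alone, Samd9l and Ddx60 differ in more than 1 tissue, Ifi44l is near 0 in every C57BL/6J library, Ifit1bl1 is lower in BALB/cJ small intestine, and Isg20 is high in the colon of both strains.

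Of 13 other antiviral effectors 10 were higher in BALB/cJ colon and 3 (Isg20, Bst2 and Trim21) were not called. Rtp4, a chaperone of chemosensory receptors with antiviral activity, ranged from 52.7 to 82.3 TPM (median 64.1) in BALB/cJ and from 8.57 to 13.7 TPM (median 13.2) in C57BL/6J colon, with medians of 25.1 and 19.1 TPM in the ileum and 32.8 and 22.9 TPM in the duodenum/jejunum. Its colonic log2 difference of 2.40 ± 0.14 had an adjusted p of 6.5e-09, the lowest in its role group. Samd9l, a restriction factor of poxviruses, was higher in BALB/cJ in all 3 tissues by about the same ratio: 93.0 to 111 TPM against 51.9 to 67.7 TPM in the colon (1.79-fold), 42.7 to 63.1 TPM against 21.6 to 39.0 TPM in the ileum (1.67-fold) and 46.8 to 73.3 TPM against 24.2 to 47.0 TPM in the duodenum/jejunum (1.75-fold; adjusted p 8.3e-08, 0.0035 and 0.0023). The ranges of Samd9l overlapped in the duodenum/jejunum alone.

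Mx2, a dynamin-like GTPase that is a polymorphic pseudogene in GENCODE M21, ranged from 5.99 to 11.2 TPM against 1.24 to 2.03 TPM in the colon (4.73-fold) and from 4.31 to 8.60 TPM against 3.07 to 6.29 TPM in the ileum (1.61-fold, adjusted p 0.035). The ileal call of Mx2 ended without the filter, with median-of-ratios scaling and with the B cell covariate (log2 differences 0.57, 0.41 and 0.68 against 0.57, adjusted p 0.060, 0.18 and 0.075). In the duodenum/jejunum Mx2 ranged from 2.90 to 9.99 TPM against 1.77 to 5.36 TPM (log2 difference 0.79, adjusted p 0.053) and was not called, but it was called without mouse 2 (adjusted p 0.043), with median-of-ratios scaling (0.046) and with robust moderation (0.046). Its paralog Mx1 was 1.89-fold higher in the colon. Rsad2, which encodes the antiviral enzyme viperin, and its neighbour Cmpk2, a mitochondrial nucleotide kinase gene, were 2.49-fold and 2.78-fold higher in the colon. Eif2ak2, the RNA-activated kinase PKR, was 1.30-fold higher. Isg20, an exonuclease gene, was at a median of 17.3 TPM in BALB/cJ and 18.5 TPM in C57BL/6J colon, and at 4.51 and 3.45 TPM in the ileum. The viral tether Bst2 and the antibody receptor Trim21 were not called in any tissue (adjusted p in the colon 0.11 and 0.055).

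The mono-ADP-ribosyltransferases PARP9, PARP12 and PARP14 and the PARP9 partner DTX3L were 1.47-fold to 1.81-fold higher in BALB/cJ colon, with all 4 called. Parp9 ranged from 53.1 to 71.8 TPM against 30.8 to 38.2 TPM in the colon (log2 difference 0.84 ± 0.07, adjusted p 5.7e-07) and at medians of 69.8 and 72.6 TPM in the ileum. Parp14 was higher in BALB/cJ colon (42.3 to 59.3 against 20.7 to 29.7 TPM) and lower in BALB/cJ ileum (54.0 to 69.6 TPM, median 60.5, against 61.8 to 98.3 TPM, median 89.7; 1.38-fold, adjusted p 0.021). The ileal call of Parp14 was lost with the B cell covariate (log2 difference -0.25, adjusted p 0.28). Dtx3l was higher in BALB/cJ colon (35.9 to 47.9 against 20.9 to 29.5 TPM) and lower in BALB/cJ duodenum/jejunum (24.7 to 40.7 against 37.3 to 50.4 TPM, 1.34-fold, adjusted p 0.027, or 0.050 without mouse 2). Dtx3l and Parp9 overlap by 682 bases on opposite strands, and the sources used here do not say whether quantification used strand.

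Of the 4 immunity-related GTPases, which act at membranes around intracellular pathogens, Irgm1 and Igtp were higher in BALB/cJ colon and Iigp1 and Tgtp2 were not called in any tissue. Irgm1 ranged from 40.7 to 56.6 TPM against 24.1 to 37.8 TPM in the colon (1.57-fold, adjusted p 3.0e-04), and with the B cell covariate its log2 difference was 0.93 instead of 0.63 with an adjusted p of 0.20. Igtp was 2.07-fold higher. Tgtp2, whose promoter stretch is shown above, was at medians of 5.21 and 5.07 TPM in the colon, 16.6 and 20 TPM in the ileum and 10.8 and 13.7 TPM in the duodenum/jejunum. The GTPases are known to respond to interferon-gamma more than to the other types.

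All 5 sensors of foreign nucleic acid were higher in BALB/cJ colon. Ddx60, a helicase that aids RNA sensing, ranged from 60.4 to 94.7 TPM (median 64.9) in BALB/cJ and from 6.24 to 15.7 TPM (median 14.4) in C57BL/6J colon, 5.34-fold (log2 difference 2.35 ± 0.18, adjusted p 2.5e-07). It was also higher in BALB/cJ duodenum/jejunum, at 55.7 to 120 TPM (median 71.0) against 27.1 to 56.6 TPM (median 34.8; 2.06-fold, adjusted p 0.0018). In the ileum, where the medians were 42.0 and 23.2 TPM, it was not called with mouse 2 (log2 difference 0.75, adjusted p 0.12) and was called without it (0.96, adjusted p 0.024). Dhx58, which encodes the regulator LGP2, and Zbp1, a sensor of Z-form nucleic acid, were 2.89-fold and 2.15-fold higher in the colon. Ifih1 and Ddx58, the RNA sensors MDA5 and RIG-I, were 1.62-fold and 1.41-fold higher there.

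The transcription factors of the response were 1.84-fold to 2.27-fold higher in BALB/cJ colon, with 3 of 3 called. Irf9, the DNA-binding subunit of the complex, ranged from 39.3 to 52.0 TPM (median 48.7) against 17.3 to 25.6 TPM (median 23.1), 2.10-fold (log2 difference 1.04 ± 0.09, adjusted p 5.3e-07). Its medians were equal to 3 digits in the ileum, 30.3 TPM in each strain, and were 31.7 and 30.3 TPM in the duodenum/jejunum. Irf7, the factor that amplifies interferon production, was 2.27-fold higher and Stat2 1.84-fold higher in the colon. None of the 3 was called in the other tissues.

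All 8 of the remaining members were higher in BALB/cJ colon. Tor3a, a torsin ATPase gene, ranged from 58.98 to 81.6 TPM against 23.5 to 28.9 TPM there (2.51-fold, adjusted p 1.1e-08) and from 13.9 to 18.1 TPM against 5.39 to 12.8 TPM in the ileum (1.62-fold, adjusted p 0.0064), without overlap in either. The ileal adjusted p of Tor3a was 0.12 with the B cell covariate. Xaf1, a pro-apoptotic gene, was 3.34-fold higher in the colon, and the chromatin-associated Sp100 was 2.24-fold higher. Epsti1 had the smallest ratio among the called members of the colon, 1.16-fold, and was lower in BALB/cJ duodenum/jejunum (26.5 to 31.2 against 31.2 to 38.7 TPM, 1.22-fold, adjusted p 0.038). The latter call was lost without mouse 2 (adjusted p 0.069) and with median-of-ratios scaling (0.090).

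The apolipoprotein L genes Apol9a and Apol9b share sequence, with 64.9% of the words of Apol9b found in Apol9a. Their sum ranged from 21.05 to 52.9 TPM (median 32.2) in BALB/cJ and from 4.09 to 7.95 TPM (median 6.63) in C57BL/6J colon, 5.38-fold. In the ileum the sum varied widely within both strains, from 9.14 to 145 TPM and from 15.2 to 122 TPM, and in the duodenum/jejunum its medians were 65.9 and 54.3 TPM. Singly, Apol9a was 4.82-fold and Apol9b 6.503-fold higher in the colon.

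Whether the strain difference itself differed between tissues was tested in a fit of all 39 libraries with the mouse as a block. The difference was larger in the colon than in the ileum for 43 members and smaller for 0, against 1.67% and 3.92% of the 17126 genes tested. Against the duodenum/jejunum it was larger in the colon for 44 members and smaller for 0, against 4.54% and 2.18% of genes. All 59 estimates of the latter contrast were above 0 in that fit, with a median of 0.94, and 57 were with median-of-ratios scaling. Without mouse 2 the counts were 44 and 47. For Oas2 the strain difference was larger by 2.22 ± 0.23 (SE, log2 scale) in the colon than in the ileum (adjusted p 5.4e-09), and by 2.07 ± 0.23 than in the duodenum/jejunum (adjusted p 2.8e-08). For Irf9, Oasl2 and Ifit3b the contrast with the ileum was 1.01, 2.59 and 1.67, and for Ifit2, Parp9 and Dtx3l the contrast with the duodenum/jejunum was 1.92, 0.92 and 1.04. Ifi44l and Samd9l, the members higher in BALB/cJ in all 3 tissues, were called in neither contrast.

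The strain difference was larger in the ileum than in the duodenum/jejunum for 3 members and smaller for 0, against 7.12% and 0.479% of genes. These were Ifit2 (0.66), Tor3a (0.53) and Isg20 (0.68), and with median-of-ratios scaling, which moves the median of this contrast over all genes from 0.16 to -0.01, 0 members were called by limma. Without mouse 2 the adjusted p of Isg20 was 0.078, while Ifi27, not called with that mouse, had a contrast of 0.45 and an adjusted p of 0.024.

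Within each strain, neighbouring tissues were compared in the same fit. In BALB/cJ 29 members were higher in the colon than in the ileum and 10 lower, against 31.7% and 16.7% of genes. In C57BL/6J 6 members were higher in the colon and 38 lower, against 47.6% and 15.8% of genes. With median-of-ratios scaling these calls were 24 and 14 in BALB/cJ, and 4 and 44 in C57BL/6J. Without mouse 2 they were 30 and 10, and 5 and 37. For 14 members, Isg15, Ifit1, Oas3, Rtp4 and Irf9 among them, the colon was higher than the ileum in BALB/cJ and lower in C57BL/6J, and for 0 the reverse. The colon was higher in both strains for 6 members, Isg20, Tor3a, Ifi27, Oas1a, Phf11d and Samd9l. The log2 contrast of Tor3a was 1.96 ± 0.11 (SE) in BALB/cJ and 1.34 ± 0.10 in C57BL/6J, and that of Isg20 was 1.62 ± 0.15 and 2.21 ± 0.14. The colon was lower in both strains for 10 members, among them Ifi35 (-0.88 ± 0.11 and -1.51 ± 0.11), Igtp, Tgtp2, Iigp1 and Parp14. Without mouse 2 these 3 counts were 12, 5 and 10. Pairs of calls were not counted over all genes, so these counts describe the list alone. Oas2 was higher in the colon of BALB/cJ (2.17 ± 0.17), and was not called in C57BL/6J, while Parp9 was lower in the colon of C57BL/6J (-1.02 ± 0.08) and was not called in BALB/cJ.

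Within the small intestine fewer members changed. In BALB/cJ 17 members were higher in the ileum than in the duodenum/jejunum and 5 lower, against 37.7% and 8.31% of genes, but this split turned to 6 higher and 16 lower with median-of-ratios scaling, which moves the median of all genes from 0.20 to 0.01. In C57BL/6J 6 were higher and 2 lower, against 6.62% and 6.56% of genes, or 9 and 6 without mouse 2. The ileum was higher in both strains for 5 members, Dtx3l (0.56 ± 0.10 and 0.37 ± 0.09, SE), Irgm1 (0.85 ± 0.17 and 0.64 ± 0.16), Parp9, Parp14 and Ifit1bl1. It was lower in both for 1, Ifi27l2b (-0.89 ± 0.25 and -0.91 ± 0.23). These pairs of calls were not counted over all genes either.

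Levels in different tissues of the same mouse went together in part. Among the 6 BALB/cJ mice the mean log2 level of the list correlated between colon and duodenum/jejunum with a Pearson r of 0.64 (Spearman rho 0.54), between colon and ileum with 0.44 (0.54) and between ileum and duodenum/jejunum with 0.44 (0.66). Among the 7 C57BL/6J mice r was 0.67 (rho 0.79) between ileum and duodenum/jejunum, 0.26 (0.21) between colon and duodenum/jejunum and 0.14 (0.29) between colon and ileum. These are descriptions over 6 or 7 animals, whose libraries share only the mouse as far as the labels say. Leaving out 1 mouse at a time moved r between colon and duodenum/jejunum from 0.34 to 0.80 in BALB/cJ and from -0.14 to 0.55 in C57BL/6J. Between colon and ileum it moved r from 0.31 to 0.86 and from -0.01 to 0.41, and between ileum and duodenum/jejunum from 0.32 to 0.60 and from 0.64 to 0.72. Without the 2 mice farthest from the median on the first-named tissue, r in the order above was 0.53 (rho 0.40), 0.95 (0.20) and 0.61 (0.40) over 4 BALB/cJ mice. Over 5 C57BL/6J mice it was 0.79 (0.80), 0.14 (0.30) and 0.85 (0.70). The values with the colon thus rested on single mice, and for colon and ileum of BALB/cJ rho fell while r rose. Without mouse 2 the r of C57BL/6J was -0.01 between colon and ileum, 0.24 between colon and duodenum/jejunum and 0.71 between ileum and duodenum/jejunum.

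**Figure D4:**
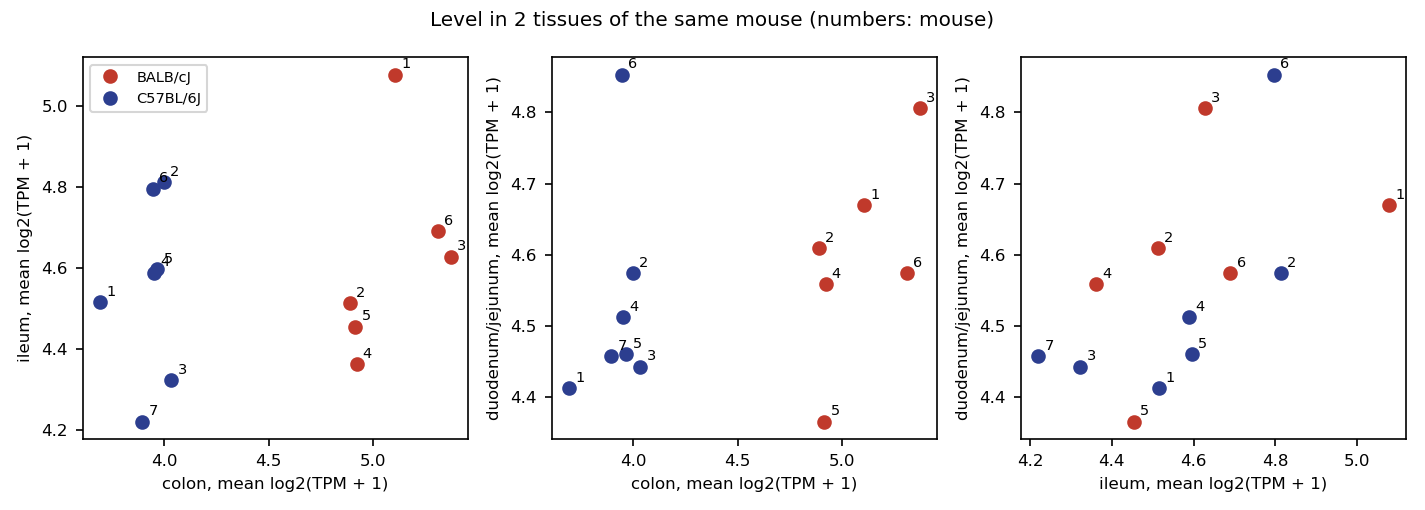
Mean log2(TPM + 1) over the 59 genes in 1 tissue (x axis) against another tissue of the same mouse (y axis), for the 3 pairs of tissues; points are mice with their numbers, coloured by strain. The strains form separate clusters in the panels with the colon, so r is given within strains, and C57BL/6J mouse 6 is the highest of its strain in the duodenum/jejunum.

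Gene by gene, the median r over members between colon and duodenum/jejunum of BALB/cJ was 0.49, with 28 of 59 members above 0.5, against a median of 0.11 over all genes and 20.8% of genes above 0.5. Between colon and ileum of BALB/cJ the medians were 0.33 and 0.23, with 17 of 59 members and 29.2% of genes above 0.5, a share near the background. Between ileum and duodenum/jejunum the medians were 0.44 and 0.38 in BALB/cJ, with 24 of 59 members and 39.3% of genes above 0.5. In C57BL/6J they were 0.24 and 0.23 with mouse 2 and 0.57 and 0.39 without it, with 32 of the 58 members that varied in both tissues and 39.8% of genes above 0.5 in the latter case. Colon and ileum of C57BL/6J had medians of -0.08 and -0.08, and colon and duodenum/jejunum 0.08 and -0.03, with 10 of 58 members and 11.2% of genes above 0.5. Between colon and duodenum/jejunum of BALB/cJ, Parp12 (0.92) and Oas1a (0.88) had the highest r of the members and Tor3a (-0.64) the lowest. In C57BL/6J the r of Parp12 and Oas1a between these tissues was 0.56 and -0.12.

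The list varied more between mice than genes at large. The median SD of log2(TPM + 1) within a group was 0.35 over members and 0.22 over all genes in BALB/cJ ileum, and 0.37 and 0.25 in C57BL/6J ileum. In the colon it was 0.26 and 0.16 in BALB/cJ and 0.20 and 0.15 in C57BL/6J. The gap was smallest in the duodenum/jejunum, at 0.29 and 0.25, and 0.26 and 0.24. Mouse 2 was kept in the C57BL/6J values.

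Most members varied together. Each gene's deviations from its group means over the 39 libraries were correlated with those of the mean of the other 58 members. The median r was 0.61, with 32 of 59 above 0.5, where 0.261% of 14563 other genes were above 0.5. Usp18 (0.90), Xaf1 (0.88), Oasl2 (0.88), Ifit1 (0.87) and Oas3 (0.86) followed the list most closely. Tor3a (-0.33), Iigp1 (-0.31), Tgtp2 (-0.23), Isg20 (-0.22) and Ifitm3 (-0.18) did not follow it. Of these 5, Tor3a and Ifitm3 were nevertheless higher in BALB/cJ colon.

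**Figure D5:**
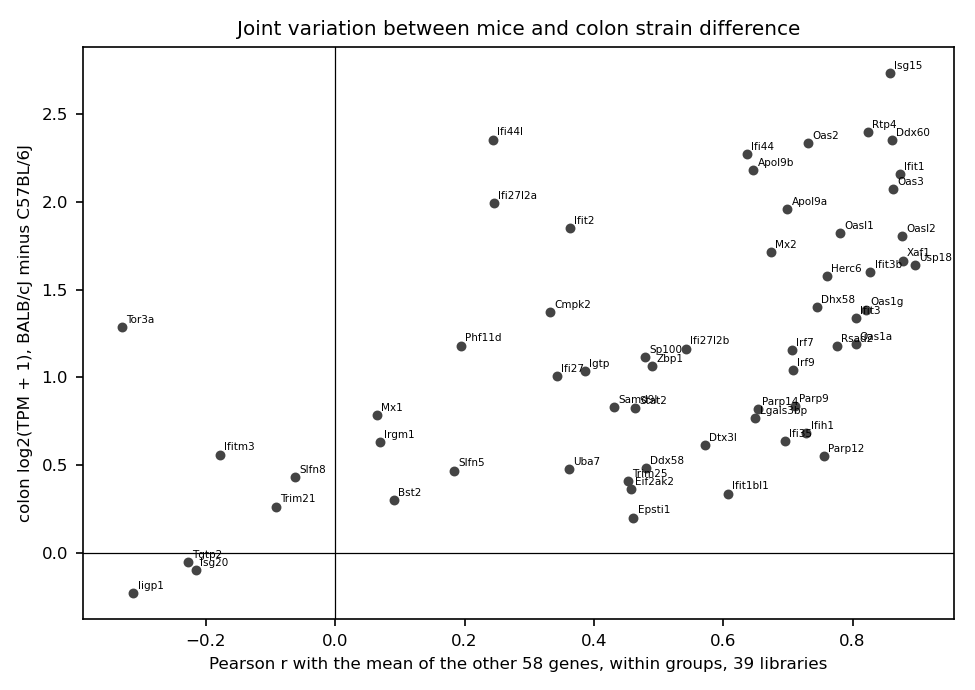
Pearson r of each gene's within-group deviations with those of the mean of the other 58 genes over 39 libraries (x axis) against its colonic difference of log2(TPM + 1), BALB/cJ minus C57BL/6J (y axis). Each point is a gene. Of all 59 members 56 lie above 0 on the y axis, among them all with r above 0.7, such as Usp18 and Isg15. Tor3a has the lowest r with a difference of 1.29.

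Genes outside the list were ranked in the same way, again with mouse 2 kept, and predicted genes, pseudogenes and clones were left out. The 10 remaining genes whose deviations were most like those of the list were Rnf213 (r 0.73), Lgals9 (0.70), Mocos (0.63), Trim34a (0.63), Trim30d (0.62), Ifit1bl2 (0.61), Helz2 (0.60), Ube2l6 (0.60), Oas1b (0.59) and Cidec (0.59), each over 39 libraries. Of these, 7 were higher in BALB/cJ colon: Rnf213, Lgals9, Mocos, Ifit1bl2, Helz2, Ube2l6 and Oas1b, by 1.39-fold to 2.66-fold. Rnf213 was lower in BALB/cJ ileum (0.644-fold, adjusted p 0.012) and duodenum/jejunum (0.678-fold, adjusted p 0.020). Trim34a and Trim30d were lower in BALB/cJ in all 3 tissues. Trim30d was at a mean of 1.70 TPM against 15.7 TPM in the colon and 7.29 against 56.1 TPM in the duodenum/jejunum.

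The genes of the pathway around the list were taken by role. Of 21 interferon genes 16 were listed at 0 in every colon library and 1, Ifnk, reached 1 TPM in a library, in each tissue. Ifnk was at a mean of 2.11 TPM in BALB/cJ and 2.31 TPM in C57BL/6J colon and was not called in any tissue. All 6 interferon receptor subunits passed the filter and 0 were called by limma in any tissue. Ifnar1, for example, was at medians of 28.5 and 25.9 TPM in the colon. Among 12 tested signalling genes, the feedback inhibitor Socs1 was 1.45-fold and the phosphatase gene Ptpn6 1.25-fold higher in BALB/cJ colon. In the ileum Jak1, Tyk2 and Ptpn2 were higher, by 1.18-fold to 1.21-fold. Most signalling genes were not called in either tissue. Of 12 tested genes of upstream sensing, Tmem173 (STING, 1.31-fold), Tbk1 (1.28-fold) and Irf5 (1.72-fold) were higher in BALB/cJ colon, and 0 were called in the other tissues by limma. Of all genes tested, 14.5% were higher and 10.8% lower in the colon, and 17.2% and 3.17% in the ileum.

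Many markers of immune cells were also higher in BALB/cJ colon, where 14.5% of all genes tested were higher and 10.8% lower. Of 9 tested B cell markers 9 were higher in BALB/cJ colon, and their summed level ranged from 51.1 to 81.0 TPM against 15.996 to 29.96 TPM. For T cells 6 of 9 were higher (34.1 to 43.8 against 18.3 to 30.8 TPM summed over the list), and for macrophages and dendritic cells 8 of 10 (288 to 535 against 141 to 270 TPM). For plasmacytoid dendritic cells, known as producers of type I interferon, 2 of 6 were higher, Siglech and Klk1. Siglech, a surface lectin gene of these cells, ranged from 1.54 to 4.72 TPM against 0.547 to 1.18 TPM (3.45-fold, adjusted p 4.6e-04), without overlap. The other tested markers of that list, Ccr9 (1.09-fold), Tcf4 (1.10-fold), Runx2 (1.09-fold) and Pacsin1 (0.877-fold), were not called in the colon. The list's sum of 2374 to 2810 against 1989 to 2696 TPM was nearly all Klk1 (means 2604 and 2252 TPM), a kallikrein gene. For fat 3 of 4 were higher (71.2 to 195 against 31.9 to 66.5 TPM). Of 10 epithelial markers 0 were higher and 3 lower (8130 to 9004 against 8694 to 9085 TPM). Smooth muscle had 0 of 6 higher and 2 lower (3060 to 4552 against 4060 to 5034 TPM).

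In the ileum 4 of 9 B cell, 3 of 10 T cell and 6 of 10 macrophage and dendritic cell markers were also higher in BALB/cJ, with summed levels of 118 to 257 against 37.1 to 168 TPM, 103 to 173 against 73.3 to 117 TPM and 362 to 673 against 83.7 to 248 TPM. Of all genes tested in the ileum 17.2% were higher and 3.17% lower. In the duodenum/jejunum 0 markers of these 3 lists were higher by limma, and 2 T cell markers were lower. Of all genes tested in that tissue 4.70% were higher and 4.80% lower. Of the plasmacytoid list 3 of 6 were higher in the ileum and 1 of 5 in the duodenum/jejunum (sums of 238 to 317 against 77.8 to 206 TPM and 124 to 191 against 108 to 230 TPM). Siglech was 5.66-fold higher in the ileum (adjusted p 2.6e-06) and 3.80-fold higher in the duodenum/jejunum (adjusted p 1.2e-04), without overlap in either. Tcf4 (1.52-fold) and Pacsin1 (1.63-fold) were the others called in the ileum, and no other was called in the duodenum/jejunum. With the mean level of the B cell list as a covariate, 31 members were called in the colon, all higher, where 2.14% of all genes were called in that fit against 25.3% without it. The members' median log2 difference was then 1.39 and the median SE 0.35, against 1.12 and 0.12. Among the members named above, Ifi27l2a, Epsti1, Irgm1, Ifi27 and Ifit3 were not called in the colon in that fit (adjusted p 0.32, 0.45, 0.20, 0.080 and 0.092). Their log2 differences were 1.72, 0.34, 0.93, 0.81 and 1.64 with the covariate, against 1.99, 0.20, 0.63, 1.01 and 1.34 without it. The summed B cell level did not overlap between the strains in the colon, so that fit cannot separate it from strain. The part of B cells or of other cell types in the colonic result was not tested.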

How the data were processed

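Total RNA from 3 gut tissues of 13 mice was extracted with a spin-column kit and sequenced after ribosomal RNA depletion, per the labels' protocols. The deposited tables hold log2(TPM + 1) per gene; kallisto 0.44.0 and GRCm38 are named in the submitters' processing notes, and the transcript annotation and use of strand are not given in the sources used here. TPM keep no read depth, so the precision set by depth is unknown. Entries whose names had turned into dates (26) were left out. Genes that reached 1 TPM in 6 or more libraries were tested on log2(TPM + 1) with limma 3.58.1 (variance trend, R 4.3.3) and Benjamini-Hochberg adjustment at 0.05, per tissue for strain, and over 39 libraries with the mouse as a block for tissue contrasts and their differences between strains. The mouse ties the 3 tissues of 1 animal, and the consensus correlation was 0.0963. Named were, per tissue, the 6 called members with the largest change in each direction, the called member with the smallest adjusted p per role, the 4 with the smallest adjusted p per difference between tissues, 5 pairs of paralogs with their sums, up to 3 called genes per pathway list and tissue, and the 10 genes outside the list most like it; other members were named within their role group after their values were seen. Predicted genes, pseudogenes and clones were left out of the 10 genes outside the list. Members and lists were chosen with earlier results of these data known. Alternatives were another pseudocount, filter, scaling, variance model, block, a B cell covariate, another score, and leaving out mice. Counts of non-overlapping ranges, group extremes and paired tissue calls without mouse 2 were added after seeing the data. The scripts were tested on simulated data. The result of 1 gene of the pathway lists is not reported here.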

Additional observations from a re-analysis of the deposited data

Results flagged for a closer look

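Single libraries that stood apart within their group were sought for 31 values in 6 groups, with a rule that chance meets in about 1 in 20 groups, and 28 of 186 groups held one. In BALB/cJ colon these were Ifi27l2a of mouse 3 (271 TPM) and Tor3a of mouse 5 (81.6 TPM). In C57BL/6J colon mouse 1 was low in the mean log2 level of the list (3.69) and in Ddx60 (6.24 TPM), Parp14 (20.7 TPM), Oasl2 (15.2 TPM) and Ifit3 (3.38 TPM).

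In the ileum of BALB/cJ mouse 1 was high in Isg15 (63.4 TPM), Rtp4 (62.0 TPM), Ifit1bl1 (76.7 TPM), Herc6 (42.3 TPM), Oas1a (48.8 TPM), Ifit3 (22.2 TPM), Apol9a (71.5 TPM) and Apol9b (73.4 TPM). The library labelled ileum of C57BL/6J mouse 2, which goes against its label, was high in Isg15 (50.2 TPM), Ddx60 (63.8 TPM), Irf9 (38.9 TPM) and Ifi27l2b (727 TPM).

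In the duodenum/jejunum of BALB/cJ, Ifi44 (9.04 TPM) and Ifit1bl1 (28.3 TPM) were high in mouse 3, and Oasl2 (28.4 TPM) was low in mouse 5. In C57BL/6J mouse 6 was high in the mean log2 level of the list (4.85) and in Rtp4 (42.1 TPM), Ddx60 (56.6 TPM), Ifi44 (7.88 TPM), Ifit3b (5.51 TPM) and Ifit3 (24.1 TPM).

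The strain difference differed between tissues in the limma test of the difference for these named genes. From colon to duodenum/jejunum it did so for Ifit2 (1.92 on the log2 scale), Oas2 (2.07), Parp9 (0.92) and Dtx3l (1.04). From colon to ileum it did so for Oas2 (2.22), Irf9 (1.01), Oasl2 (2.59) and Ifit3b (1.67), and from ileum to duodenum/jejunum for Ifit2 (0.66), Tor3a (0.53) and Isg20 (0.68).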

How the results depend on the processing

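For the named genes 855 alternatives were run, of the strain tests and of their differences between tissues. None changed direction, 814 kept their side of the threshold, 31 lost a call and 10 gained one. Tissue contrasts within a strain were not among them. There the BALB/cJ calls between ileum and duodenum/jejunum turned from 17 higher and 5 lower to 6 and 16 with median-of-ratios scaling. With the B cell level as a covariate 31 members were called in the colon and 4 in the ileum. In the colon the summed B cell level did not overlap between the strains, so that count cannot separate it from strain. The mouse numbers are shared between strains but belong to different animals, and over 6 same-numbered pairs r ran from -0.159 to 0.0935 in the colon, from -0.339 to 0.117 in the ileum (1 pair above 0.1) and from -0.347 to 0.225 in the duodenum/jejunum (2 pairs above 0.1). With that number as a replicate block the members called numbered 52 for colon, 5 for ileum and 9 for duodenum/jejunum. With median-of-ratios scaling 0 members differed in strain difference between ileum and duodenum/jejunum, and without mouse 2 of C57BL/6J 15 were called between those tissues in C57BL/6J. The correlations of the list's level moved most. In BALB/cJ, r between colon and ileum was 0.280 with the median over members and 0.946 without the 2 mice farthest from the median, and r between ileum and duodenum/jejunum was 0.826 with median-of-ratios scaling and 0.612 without those mice. In C57BL/6J, r between colon and ileum was -0.100 with that scaling and 0.849 without the farthest mice. Between ileum and duodenum/jejunum it was 0.612 with z scores, 0.787 with the median, 0.812 with that scaling and 0.786 without the farthest mice. The cause was not tested. The unknown depth limits what can be said of genes near 1 TPM.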
